A study of Mus musculus with 9 samples.

Results

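The genes described here are the ribosome biogenesis factors of mouse skin, the proteins that make, modify and assemble ribosomal RNA. Members were taken by symbol, as every gene whose name starts with 1 of 24 prefixes (Utp, Nop, Polr1, Rrp, Nol, Imp3, Imp4, Gar1, Fbl, Ncl, Npm1 and others), with Nol3 left out. The prefixes took 57 of the 12393 genes measured. Of these, 51 have a known role in ribosome biogenesis and are called factor genes below. The other 6, Fblim1, Fbln1, Fbln2, Fbln5, Fbln7 and Ncln, share only letters with the prefixes and are given apart. Dkc1, which the rule also names, was not matched to a gene.

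The study compared whole skin of control mice, labelled LC, with that of 3 sets of transgenic mice, labelled L60, L84 and LA, in a series about constitutively active Akt. All mice were of a mixed C57BL/DBA/FVB background, and skin was taken at 30 days after birth. LC had 3 arrays and each transgenic genotype had 2, and each array held a pool of RNA from mice of the same genotype. The labels do not say how L60, L84 and LA differ from each other, which promoter drives the transgene or how many mice entered a pool. The p-values below therefore measure only the spread between these pools, and the number of arrays limits their precision.

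Ribosomes are built in the nucleolus. RNA polymerase I copies the ribosomal DNA into a long precursor RNA, small nucleolar particles guide its methylation and pseudouridylation, and assembly complexes fold and cut it into the RNAs of the small and the large subunit. The process takes up much of the transcription of a growing cell and is known to be stimulated by growth factor signalling through Akt and mTOR and by the transcription factor Myc. Demand for it is high in dividing cells, which in skin include those of the epidermis and of the growing hair follicle.

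The deposited values have no level. Each probe set was scaled over the 9 arrays to a mean of 0 and an SD of 1, so a score says how an array stands against the other arrays for that gene, and a difference between genotypes is counted in score units. A unit is the SD over the 9 arrays for a gene with 1 probe set; a gene with several has the mean of their scores, which spreads less where they disagree. No fold change can be read from it, genes cannot be ranked by abundance, and the skin markers could not be checked for their level. A gene was called changed when the Benjamini-Hochberg adjusted p of limma's fit, over all 12393 genes, was below 0.05. Across the whole series LA minus LC called 223 genes, L84 minus LC called 70 and L60 minus LC called 0. The median difference of all genes was 0.247 in LA minus LC, 0.00308 in L84 minus LC and 0.0777 in L60 minus LC, so a change in LA is read against a general shift upward. The 18S rRNA control probe sets stood high on LC replicate 1, L60 replicate 1 and L84 replicate 1, at mean scores of 1.13, 2.09 and 0.339, and between -0.642 and -0.528 on the other 6 arrays. LC replicate 1 and L60 replicate 1 also stood apart in other controls. They scored -1.49 and -1.81 for Gapdh 3′, -1.93 and -0.824 for Actb 5′, and 0.965 and 1.30 for the spike-ins. L84 replicate 1 did not share this, at 1.11, -0.560 and -0.101. What these controls say of RNA quality was not tested. The scores spread most widely on L84 replicate 1 and LA replicate 2, with SDs over genes of 1.13 and 1.20 against 0.675 to 0.836 elsewhere.

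Factor genes stood lower in LA skin than in control skin, and L84 lay between them. The median score of the 51 factor genes was 0.118, 0.562 and 0.624 on the 3 LC arrays, 0.430 and 0.522 on the L60 arrays, -0.0177 and -0.533 on the L84 arrays, and -0.666 and -1.11 on the LA arrays. Both LA arrays were below both L84 arrays, which were below every LC and L60 array, and the LC and L60 arrays overlapped. The number of factor genes with a score above 0 was 33, 46 and 44 of 51 on the LC arrays, 38 and 44 on the L60 arrays, 25 and 7 on the L84 arrays, and 10 and 7 on the LA arrays. L84 replicate 1 thus lay near the LC array with the fewest, and L84 replicate 2 lay at the level of LA.

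**Figure D1:**
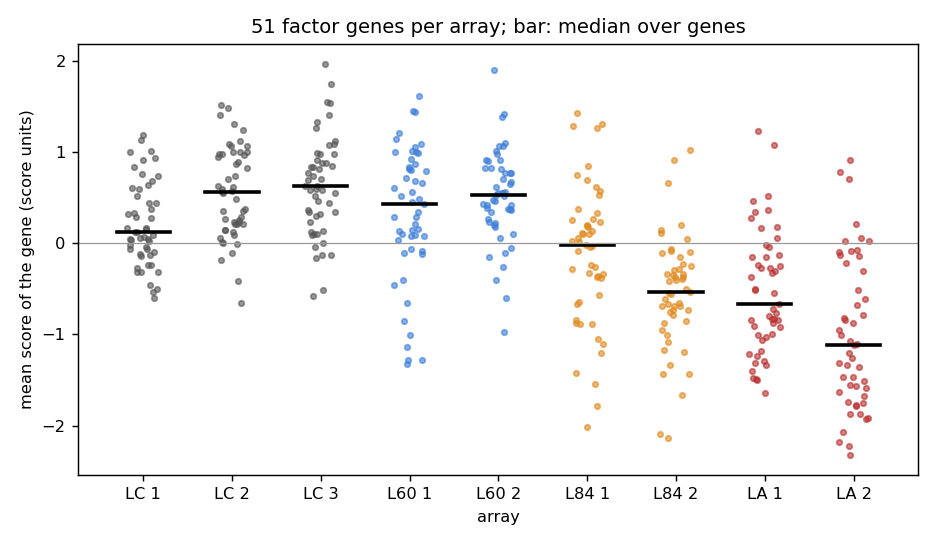
Score (score units) of each of the 51 factor genes on each of the 9 arrays, with a bar at the median of each array. The medians lie between 0.118 and 0.624 on the LC and L60 arrays, at -0.0177 and -0.533 on the L84 arrays and at -0.666 and -1.11 on the LA arrays.

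In LA minus LC, 47 of the 51 factor genes had a lower mean and 4 a higher mean, with a median difference of -1.41. The fit called 2 of them, Gar1 and Utp20, both lower, which is 3.92% of the factor genes where 1.8% of all genes were called in either direction. Before adjustment, 21 of 51 (41.2%) had a p under 0.05, against 20.8% of all genes. Both LA arrays lay below all 3 LC arrays for 34 factor genes (66.7%) and above them for 0, against 21% and 27.8% of all genes. Without the 3 arrays high in 18S, 0 factor genes and 1 of all genes were called, and the median was -1.49. Without the 2 arrays with the widest scores, 0 factor genes and 45 of all genes were called, and the median was -1.10. In bulk skin, fewer cells of a type and less RNA per cell cannot be told apart.

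L84 minus LC ran the same way with smaller differences: 46 factor genes had a lower mean and 5 a higher mean, with a median of -0.835. The fit called 0 factor genes, where it called 0.565% of all genes, and 11 of 51 (21.6%) had an unadjusted p under 0.05, against 12.2% of all genes. Both L84 arrays were below all LC arrays for 24 factor genes (47.1%) and above them for 1, Nop53, against 14.7% and 13.8% of all genes. The 2 L84 arrays did not carry this alike. Between the arrays high in 18S, L84 replicate 1 minus LC replicate 1 had a median of -0.303, and among the arrays low in 18S, L84 replicate 2 against LC replicates 2 and 3 had a median of -1.14. Without L84 replicate 2 the median over the factor genes was -0.486.

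Scores in L60 skin overlapped with those of control skin. In L60 minus LC, 24 factor genes had a higher mean and 27 a lower mean, with a median of -0.0426. The fit called 0 factor genes and 0% of all genes, and 2 factor genes (3.92%) had an unadjusted p under 0.05, against 4.72% of all genes. Both L60 arrays were above all LC arrays for 4 factor genes, Rrp15, Tsr1, Utp11 and Utp20, and below them for 2, Gar1 and Rrp8, where 14.4% and 10.8% of all genes did so. All 3 comparisons share the LC arrays, so they are not independent of each other.

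**Figure D2:**
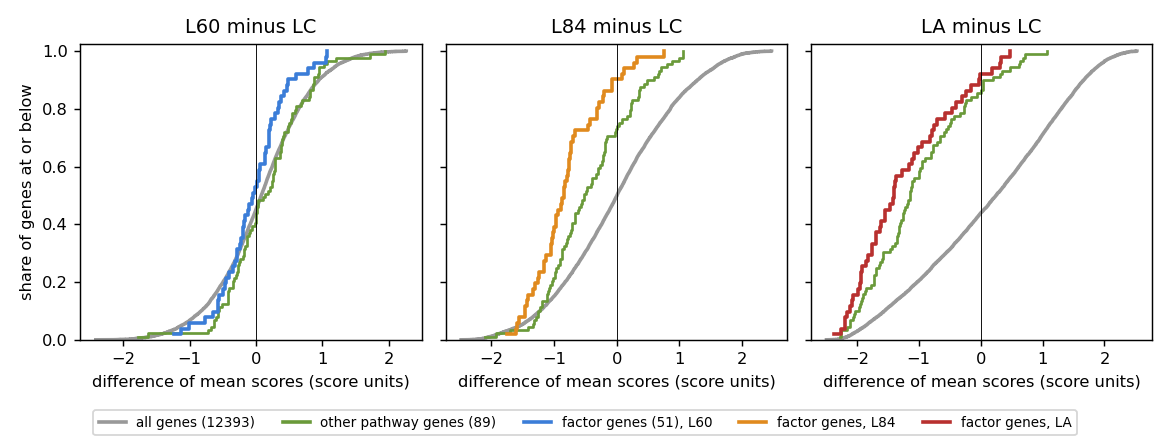
Cumulative share of genes by difference in score (score units) for each transgenic genotype minus LC, for all 12393 genes (grey), 89 other pathway genes (green) and the 51 factor genes (coloured). The factor genes are shifted to lower values in L84 (median -0.835) and LA (median -1.41), and in L60 their median is -0.0426.

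Set directly against L60, LA again stood lower, although this comparison shares the LA arrays with the one against LC. LA minus L60 had a median of -1.46 over the factor genes, 45 of 51 were lower, and both LA arrays lay below both L60 arrays for 37 (72.5%) and above them for 0, against 23.7% and 26.8% of all genes. Utp20 alone was called, where 0.629% of all genes were, and 22 of 51 (43.1%) had an unadjusted p under 0.05, against 16.2% of all genes. L84 minus L60 had a median of -0.724 with 44 of 51 lower and 0 called, where 0.113% of all genes were. LA minus L84 had a median of -0.607 with 38 of 51 lower and 0 called, where 0.0161% of all genes were, against a median of 0.117 over all genes. This median was -0.207 without L84 replicate 1, -0.277 without LA replicate 2 and -0.0799 without both, which are the 2 arrays with the widest scores. The test for any difference among the 4 genotypes called 0 factor genes and 0.734% of all genes, and 20 factor genes (39.2%) had an unadjusted p under 0.05, against 14.8% of all genes.

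Many factor genes showed the same order of genotypes. For 15 of 51, both L84 and both LA arrays were below every LC and L60 array, which was so for 5.01% of all genes. For 10 of these, both LA arrays were also below both L84 arrays, against 1.86% of all genes. Among the 15, Ebna1bp2, Nol11 and Polr1a had probe sets that differed in sign in LA minus LC, so their order is that of an average. The same limit holds for Utp6, whose probe sets differed in sign in L60 minus LC and L84 minus LC (lowest r = -0.176). Probe sets of Ddx21 and Fbl differed in sign in L60 minus LC. The LA mean was the lowest of the 4 genotype means for 35 factor genes, against 29.4% of all genes, the L84 mean for 10, and the LC and the L60 mean for 3 each. LA replicate 2 was the lowest of all arrays for 25 factor genes (49%), and it was the lowest array for 20.3% of all genes. LA replicate 1 was the lowest for 9 (17.6%), against 6.41% of all genes.

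**Figure D3:**
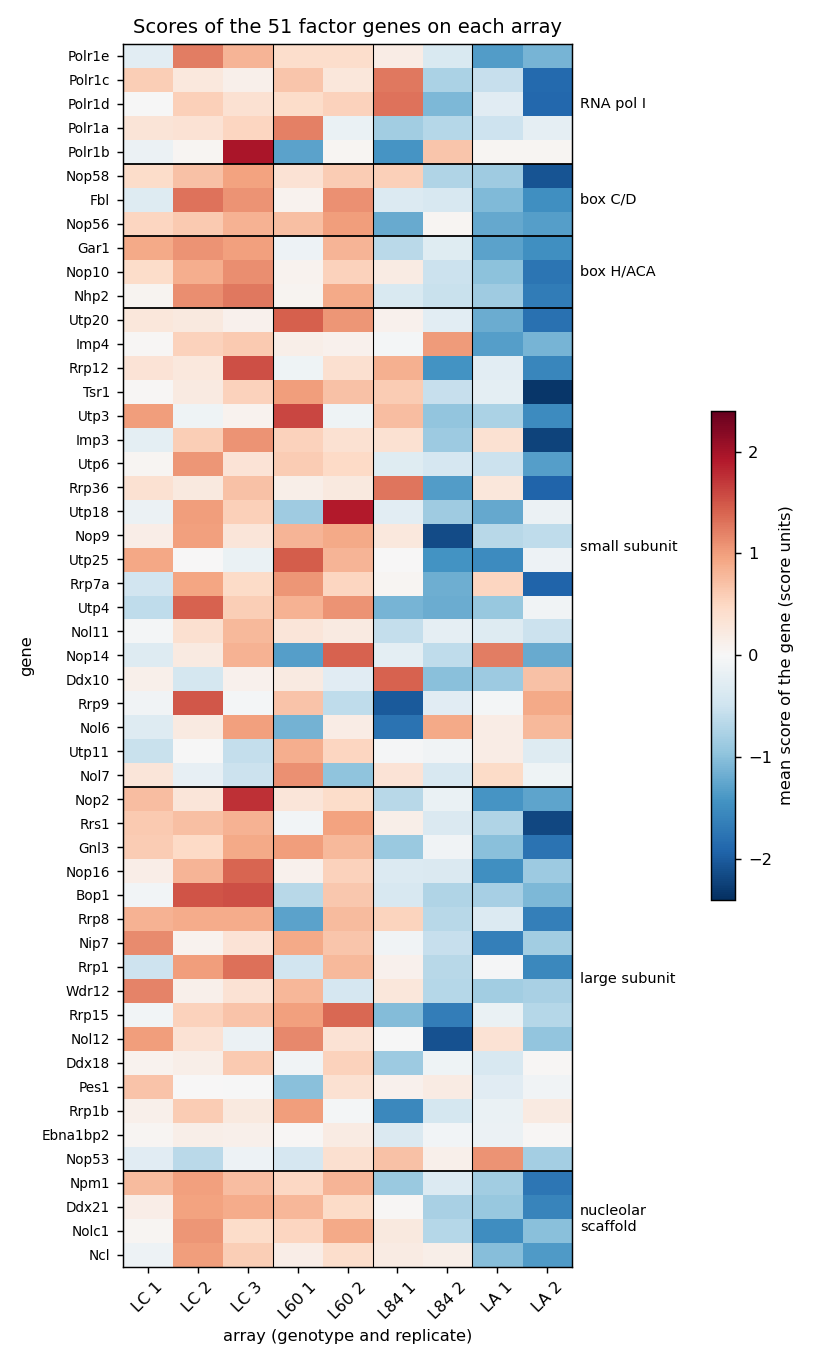
Scores of the 51 factor genes (lines of the plot, grouped by role) on the 9 arrays (columns), in score units from low to high. The LA columns are low across most genes of each role. For 17 of the 51 genes the LA arrays overlap the LC arrays, among them Nol6, Nol7, Rrp9 and Nop53.

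RNA polymerase I is the enzyme that transcribes ribosomal DNA, and the prefixes took 5 of its subunits. These had lower means in LA than in LC in 5 of 5 cases, with 0 called and a median of -1.38. Polr1a encodes the largest, catalytic subunit. Its scores were 0.318, 0.356 and 0.516 in LC, 1.21 and -0.155 in L60, -0.839 and -0.685 in L84, and -0.506 and -0.217 in LA. Both L84 and both LA arrays were below all LC arrays, and L60 spread across them. These scores average 3 probe sets that differed in sign in L60 minus LC and in LA minus LC (lowest pairwise r = -0.147). The differences were -1.16 ± 0.410 (SE) in L84 minus LC, with an adjusted p of 0.382, and -0.758 ± 0.410 in LA minus LC, with an adjusted p of 0.350. Polr1e, an accessory subunit of the polymerase, stood lower in LA than in LC (-1.83 ± 0.472, adjusted p = 0.132). Polr1c and Polr1d, subunits shared with RNA polymerase III, both had their highest score on L84 replicate 1 (1.27 and 1.30) and their lowest on LA replicate 2 (-1.87 and -1.88). Polr1b, the second-largest subunit, differed least in LA minus LC, by -0.577 ± 0.980. Its scores were -0.134, 0.0518 and 1.97 in LC, -1.28 and 0.0518 in L60, -1.42 and 0.660 in L84, and 0.0518 on both LA arrays, so all 4 genotypes overlapped. That value recurs on 4 arrays, and Polr1b was the only factor gene with scores equal to 6 digits on arrays of the same genotype. Equal scores on arrays of different genotypes also occurred in other factor genes, and 44.3% of all probe sets held a repeated value.

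The box C/D particle, which 2′-O-methylates ribosomal RNA, was lower in LA than LC for 3 of 3 genes, with 0 called. Both LA arrays were below all LC, L60 and L84 arrays for each gene. Of all genes, 21% had both LA arrays below all LC arrays, 23.7% below both L60 arrays and 13.6% below both L84 arrays. The share with all of these together was not counted. Fbl, the methyltransferase fibrillarin, scored -0.318, 1.30 and 1.08 in LC, 0.0765 and 1.10 in L60, -0.335 and -0.376 in L84, and -1.06 and -1.47 in LA. LC replicate 1 stood close to the L84 arrays, and the LA arrays were lowest. The difference LA minus LC was -1.95 ± 0.598, with an adjusted p of 0.168. Nop56, a core scaffold protein of the particle, scored 0.511, 0.630 and 0.834 in LC, 0.716 and 1.01 in L60, -1.20 and 0.0430 in L84, and -1.22 and -1.32 in LA. L84 replicate 1 was at the level of LA while L84 replicate 2 lay between LA and the controls. Its difference LA minus LC was -1.93 ± 0.382 (adjusted p = 0.0847). Nop58, the partner of Nop56 in that scaffold, scored 0.443, 0.706 and 0.975 in LC, 0.343 and 0.613 in L60, 0.567 and -0.730 in L84, and -0.847 and -2.07 in LA. Here L84 replicate 1 was within the LC range, the reverse of Nop56. The difference LA minus LC was -2.17 ± 0.543 (adjusted p = 0.126).

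The box H/ACA particle, which turns uridine of ribosomal RNA into pseudouridine, had the lowest median of the 6 roles in LA minus LC, at -2.18. A gene's score spreads less where its probe sets disagree, so these medians do not rank the roles by size of change. All 3 measured genes of the particle had both L84 and both LA arrays below all LC arrays. Of all genes, 14.7% had this for L84 and 21% for LA, and the joint share was not counted. Gar1, a core protein of the particle that helps release its substrate, scored 0.914, 1.09 and 0.992 in LC, -0.116 and 0.820 in L60, -0.643 and -0.298 in L84, and -1.29 and -1.47 in LA. LC, L60, L84 and LA followed each other in that order with no overlap. Gar1 fell by 2.38 in LA against LC (-2.38 ± 0.297, adjusted p = 0.0376). It differed by -1.47 ± 0.297 in L84 (adjusted p = 0.175) and by -0.646 ± 0.297 in L60, and neither was called. The call in LA was lost when any LC, L84 or LA array was left out, with adjusted p from 0.0532 to 0.172, and held when either L60 array was left out. It was also lost with moderated variance (adjusted p = 0.115) and with the replicate number as a block (adjusted p = 0.235). Nop10, a small protein needed to assemble the particle, differed by -2.18 ± 0.383 in LA minus LC (adjusted p = 0.0699). Nhp2, which binds the guide RNA, differed by -2.07 ± 0.512 (adjusted p = 0.124). The scores of these 3 genes ran closely together over the 9 arrays, with a mean pairwise r of 0.930.

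**Figure D4:**
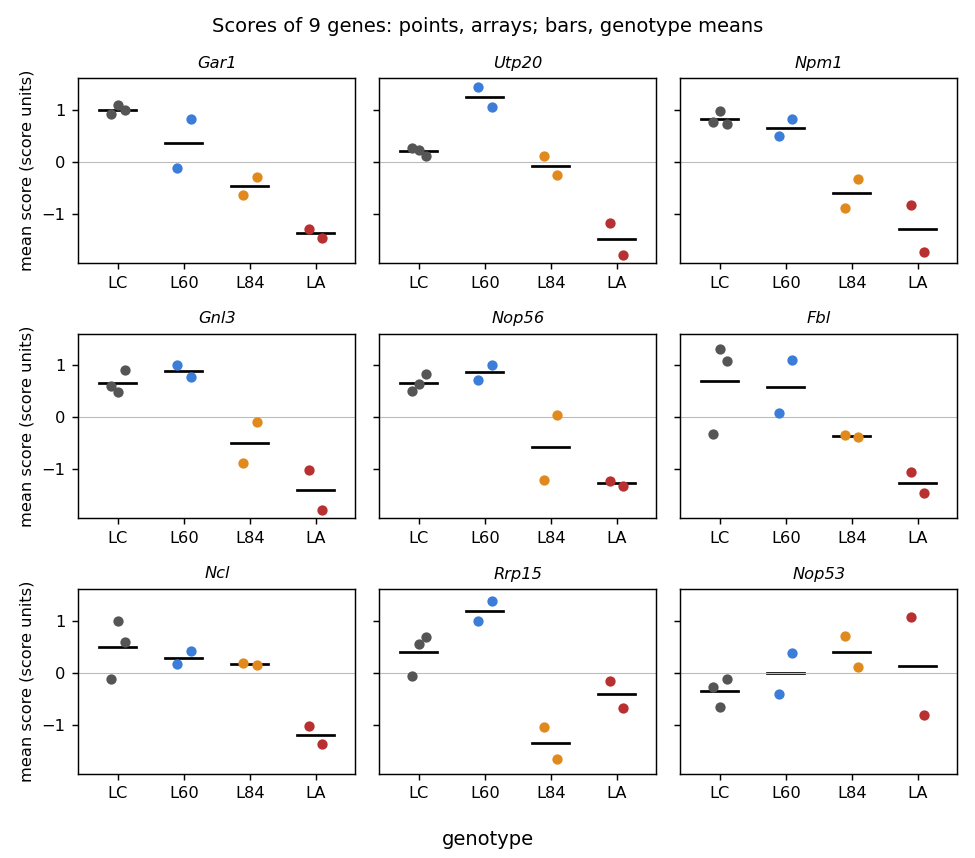
Scores (score units) of selected factor genes on each array, by genotype, with a bar at each genotype's mean. Gar1 steps down from LC through L60 and L84 to LA, Utp20 is highest in L60 and lowest in LA, and Npm1, Gnl3 and Nop56 are low in L84 and LA.

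The small subunit group held the proteins of the processome, the large complex that forms on the precursor of 18S rRNA, and of later 40S maturation. Of its 20 genes, 17 were lower in LA than in LC and 1, Utp20, was called, with a median of -1.10. This was the smallest median shift of the 6 roles in score units. Both LA arrays were below all LC arrays for 8 of the 20 (40%), against 21% of all genes. Utp20, a very large scaffold protein of the processome, scored 0.274, 0.232 and 0.104 in LC, 1.44 and 1.06 in L60, 0.104 and -0.248 in L84, and -1.19 and -1.78 in LA. It was highest on both L60 arrays, lowest on both LA arrays, and L84 touched the LC range. There L84 replicate 1 and LC replicate 3 had the same score, 0.104. Utp20 fell by 1.69 in LA against LC (-1.69 ± 0.234, adjusted p = 0.0471). Against L60 it fell by 2.74 (-2.74 ± 0.256, adjusted p = 0.0335). The difference L60 minus LC was 1.05 ± 0.234, with an adjusted p of 0.710. Leaving out any array ended the call against LC, with adjusted p from 0.0534 to 0.190. With moderated variance neither call was made, at adjusted p of 0.126 against LC and 0.228 against L60.

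Imp3 and Imp4 belong to the complex that brings the U3 small nucleolar RNA to the precursor. Imp4 scored 0.0369, 0.562 and 0.624 in LC, 0.131 and 0.0966 in L60, -0.0446 and 1.02 in L84, and -1.32 and -1.11 in LA. It was lowest on the LA arrays, by more than 1 unit, with a difference LA minus LC of -1.62 ± 0.364 (adjusted p = 0.105) and L84 minus LC of 0.0802 ± 0.364. The scores of Imp4 average 2 probe sets (r = 0.186) that differed in sign in L60 minus LC and in L84 minus LC. Imp3 scored -0.240, 0.596 and 1.08 in LC, 0.556 and 0.370 in L60, 0.369 and -0.871 in L84, and 0.361 and -2.22 in LA. Its LA arrays lay far apart, LA replicate 1 within the LC range, and the difference was -1.41 ± 0.915 (adjusted p = 0.418). The same split of the LA arrays was seen for Tsr1, a GTPase-like factor of late 40S maturation, which scored 0.0218, 0.209 and 0.544 in LC, 1.01 and 0.708 in L60, 0.618 and -0.544 in L84, and -0.240 and -2.33 in LA. Tsr1 was above all LC arrays in L60 and below them in LA, and its difference LA minus L60 was -2.14 ± 0.779 (adjusted p = 0.287). Utp4, a processome subunit, was low on both L84 arrays, at -1.11 and -1.19, and its difference of -1.61 ± 0.636 was the largest of the group in L84 minus LC (adjusted p = 0.415). Utp25, another processome protein, differed by -1.85 ± 0.760 in L84 minus L60, with an adjusted p of 0.645.

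A few genes of this group had means in LA near to or above those in LC. Nol6, a processome protein, had means 0.184 ± 0.958 higher in LA than LC, and its LC, L60 and L84 arrays each spread over more than 1 unit. Nol7 differed by 0.327 ± 0.690 and Utp11 by 0.308 ± 0.252, none of them called. The probe sets of Nol6, Nol7 and Utp11 differed in sign in LA minus LC. The lowest r between probe sets was -0.318 for Nol7 and -0.553 for Utp11, so their gene scores average unlike readings. Utp11 scored -0.540, -0.00982 and -0.581 in LC, 0.870 and 0.517 in L60, -0.0273 and -0.0897 in L84, and 0.171 and -0.309 in LA. It was high on the L60 arrays and mixed elsewhere, with a difference L60 minus LC of 1.07 ± 0.252 and an adjusted p of 0.764. Rrp9, a protein of the U3 particle, was lowest on L84 replicate 1 at -2.01 and stood at -0.0473 and 0.913 in LA. Ddx10, an RNA helicase, stood at 1.42 and -1.01 on the L84 arrays and at -0.880 and 0.706 on the LA arrays, so the arrays of these genotypes did not agree in sign.

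Factors of the large subunit were lower in LA than LC for 15 of 16 genes, with 0 called and a median of -1.38. Both LA arrays were below all LC arrays for 12 of them (75%), against 21% of all genes. Both L84 arrays were below all LC arrays for 11 (68.8%), against 14.7% of all genes. Gnl3, the nucleolar GTP-binding protein nucleostemin known from proliferating and stem cells, scored 0.603, 0.484 and 0.908 in LC, 0.999 and 0.774 in L60, -0.888 and -0.0926 in L84, and -1.01 and -1.78 in LA. The LC and L60 arrays were all high, the L84 arrays lower and the LA arrays lowest. The difference LA minus LC was -2.06 ± 0.350, with an adjusted p of 0.0660. Nop2, a methyltransferase of the large subunit RNA, scored 0.739, 0.285 and 1.75 in LC, 0.285 and 0.432 in L60, -0.663 and -0.157 in L84, and -1.41 and -1.26 in LA. Its L84 arrays were below all LC and L60 arrays and its LA arrays below L84, with a difference LA minus LC of -2.26 ± 0.461 (adjusted p = 0.0900). Rrs1, which helps to place the 5S particle in the large subunit, differed by -2.19 ± 0.539 in LA minus LC (adjusted p = 0.124).

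Bop1, Pes1 and Wdr12 form the PeBoW complex, which is needed for processing of the large subunit RNAs, and their scores differed in pattern. Bop1 scored -0.0598, 1.52 and 1.54 in LC, -0.660 and 0.650 in L60, -0.381 and -0.730 in L84, and -0.798 and -1.08 in LA. Both L84 and both LA arrays were below all LC arrays, and LC replicate 1 was far below the other LC arrays. The differences were -1.55 ± 0.663 in L84 minus LC and -1.94 ± 0.663 in LA minus LC, with adjusted p of 0.450 and 0.202. Wdr12 scored 1.18, 0.120 and 0.345 in LC, 0.800 and -0.400 in L60, 0.263 and -0.690 in L84, and -0.837 and -0.785 in LA, a difference LA minus LC of -1.36 ± 0.548 (adjusted p = 0.250). Its LA arrays were below all other arrays, and L60 and L84 each had 1 array within the LC range and 1 below it. Pes1 scored 0.683, 0.00233 and -0.00288 in LC, -1.0 and 0.359 in L60, 0.112 and 0.204 in L84, and -0.268 and -0.0849 in LA. Its groups lay close to 0, and LA minus LC was -0.404 ± 0.459 (adjusted p = 0.622).

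Rrp15, a factor of pre-60S assembly, stood on opposite sides of the LC arrays in L60 and in the other genotypes. It scored -0.0642, 0.552 and 0.691 in LC, 0.987 and 1.38 in L60, -1.05 and -1.66 in L84, and -0.155 and -0.680 in LA. Both L60 arrays were above all LC arrays, and both L84 and both LA arrays were below them. The difference L84 minus LC, -1.75 ± 0.348, was the largest of any factor gene in that comparison and had an adjusted p of 0.169. Rrp1b, a nucleolar protein of the Rrp1 family, was low on the L84 arrays at -1.55 and -0.420 and stood at -0.151 and 0.207 in LA. Rrp8, a methyltransferase of the large subunit RNA, was below all LC arrays in L60, L84 and LA, with arrays more than 1 unit apart in each of them. Nop53, which links pre-60S particles to the RNA exosome, was the only gene of the group with a higher mean in L84 and LA, at 0.756 ± 0.635 and 0.481 ± 0.635. Its LA arrays, at 1.08 and -0.818, lay on either side of the LC arrays, and its probe sets differed in sign in LA minus LC.

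The abundant nucleolar proteins were lower in LA for 4 of 4 genes, with 0 called and a median of -1.84. Both LA arrays were below all LC and L60 arrays for each gene. Of all genes, 21% had both LA arrays below all LC arrays and 23.7% below both L60 arrays, and the joint share was not counted. Npm1, the nucleolar chaperone nucleophosmin, scored 0.759, 0.978 and 0.736 in LC, 0.489 and 0.824 in L60, -0.883 and -0.334 in L84, and -0.829 and -1.74 in LA. LC and L60 were high and L84 and LA low, with no overlap between these pairs of genotypes. The differences were -1.43 ± 0.331 in L84 minus LC (adjusted p = 0.216) and -2.11 ± 0.331 in LA minus LC (adjusted p = 0.0592). Ncl, nucleolin, which acts in ribosomal DNA transcription and early processing, scored -0.114, 0.997 and 0.591 in LC, 0.158 and 0.420 in L60, 0.191 and 0.145 in L84, and -1.03 and -1.36 in LA. Its L84 arrays were within the LC range and its LA arrays below it, with a difference LA minus LC of -1.69 ± 0.348 (adjusted p = 0.0918) and LA minus L84 of -1.36 ± 0.381 (adjusted p = 0.385).

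Ddx21, an RNA helicase that couples polymerase I transcription with RNA processing, scored 0.154, 0.970 and 0.883 in LC, 0.788 and 0.465 in L60, 0.0284 and -0.787 in L84, and -0.917 and -1.58 in LA. Both L84 arrays were below all LC and L60 arrays, and both LA arrays below L84. The difference LA minus LC was -1.92 ± 0.410 (adjusted p = 0.0962). Nolc1, a chaperone of small nucleolar particles, scored 0.0447, 1.06 and 0.438 in LC, 0.512 and 0.900 in L60, 0.229 and -0.690 in L84, and -1.49 and -1.01 in LA. L84 replicate 1 overlapped LC and the LA arrays were below all others, with a difference LA minus LC of -1.76 ± 0.435 (adjusted p = 0.124).

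The factor genes varied together over the arrays, although this includes the differences between genotypes. The mean Pearson r over the 1275 pairs of factor genes was 0.402 across the 9 arrays, 83.6% of pairs were above 0, and the mean over all pairs of measured genes was 0.00721. Pairs in the box H/ACA group had a mean r of 0.930, those among the abundant nucleolar proteins 0.857, those in the box C/D group 0.786, those of the large subunit 0.381, those of the small subunit 0.266 and those of polymerase I 0.260. Ddx21 followed the mean of the other factor genes most closely (r = 0.976), then Nhp2 (0.961) and Nop10 (0.953). Nol6 (-0.204), Nol7 (-0.195), Nop53 (-0.140) and Ddx10 (-0.0448) did not follow it. These values describe 9 arrays that share their scaling, and no test was made on them.

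Probe sets of the same gene did not always give the same picture. Of the 51 factor genes, 28 had more than 1 probe set, and in 10 of these at least 1 pair of probe sets was negatively correlated over the arrays. In LA minus LC the probe sets of 11 of the 28 differed in sign. Ebna1bp2, a large subunit assembly factor, had probe sets that mirrored each other (r = -0.944), with differences LA minus LC of -1.99 ± 0.607 and 1.67 ± 0.777, so its gene score, at -0.160 ± 0.111, averages opposite readings. The probe sets of Pes1 also ran against each other (r = -0.566), with -1.45 ± 0.937 and 0.641 ± 1.0. Taken singly, 4 of the 89 factor probe sets were called in LA minus LC, all lower. Among all 20380 probe sets that name 1 gene, 235 were called in either direction. The factor probe sets called belong to Gar1 (-2.38 ± 0.297, adjusted p = 0.0471), Nop56 (-2.10 ± 0.213, adjusted p = 0.0301), Npm1 (-2.34 ± 0.264, adjusted p = 0.0379) and Wdr12 (-2.48 ± 0.264, adjusted p = 0.0338). The other Wdr12 probe set differed by -0.241 ± 1.14, and the 2 were nearly uncorrelated (r = 0.0498).

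Other genes of the pathway, from a list of 103 that the prefixes do not reach, showed the same direction. Of the 89 measured, 77 were lower and 12 higher in LA than in LC, 65 and 24 in L84, and 37 and 52 in L60, with medians of -1.14, -0.523 and 0.131. The fit called 2 of the 89 in LA minus LC, both lower, 0 in L84 minus LC and 0 in L60 minus LC. Of all genes, 1.8%, 0.565% and 0% were called in these comparisons, so the number of calls does not set the list apart. Wdr43, a processome protein, scored 0.387, 0.678 and 0.684 in LC, 0.951 and 0.951 in L60, -0.709 and -0.647 in L84, and -1.34 and -0.957 in LA. Its genotypes did not overlap, in the order L60, LC, L84 and LA, and it fell by 1.73 in LA against LC (-1.73 ± 0.148, adjusted p = 0.0159) and fell by 2.10 against L60 (-2.10 ± 0.162, adjusted p = 0.0202). Lyar, a nucleolar protein of ribosomal RNA processing, scored 0.555, 0.911 and 1.18 in LC, 0.995 and 0.188 in L60, -0.443 and -0.615 in L84, and -1.30 and -1.47 in LA, and fell by 2.27 in LA against LC (-2.27 ± 0.303, adjusted p = 0.0429).

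The 6 genes that share the prefixes by spelling were mixed in direction. Of these, 3 were higher and 3 lower in LA than in LC, with a median of 0.188 and 0 called. Fbln1, a secreted protein of the extracellular matrix, scored -1.19, -0.316 and -0.203 in LC, -1.33 and -0.151 in L60, 0.195 and 0.252 in L84, and 1.62 and 1.12 in LA. It stood above all LC arrays in L84 and LA, with a difference LA minus LC of 1.94 ± 0.483 (adjusted p = 0.126). Ncln, a membrane protein of the endoplasmic reticulum, was lower in LA by -1.81 ± 0.764 (adjusted p = 0.264). Fblim1, an adaptor at actin filaments and cell contacts, differed by -1.40 ± 0.477 in L84 minus LC (adjusted p = 0.362). The fibulins Fbln2, Fbln5 and Fbln7 had standard errors of 0.884 or more in LA minus LC.

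Markers of cell states and of other cell types also differed between these genotypes. Of 9 markers of dividing cells, 9 were lower in LA than in LC and 3 were called, with a median of -1.90, and the medians were -0.686 in L84 and 0.472 in L60. Their median score was 0.246, 0.505 and 0.454 on the LC arrays, 0.713 and 1.07 on L60, -0.766 and 0.223 on L84, and -1.32 and -1.56 on LA. On the L84 arrays the order was the reverse of that of the factor genes, whose median was lower on replicate 2. Of 8 hair shaft markers, 8 were lower and called in both L84 and LA, with medians of -2.15 and -2.07, and L60 had a median of -0.910. Their median scores lay from 1.07 to 1.18 in LC, at 0.217 and 0.360 in L60, and from -1.05 to -0.906 in L84 and LA. Hair shaft markers were thus as low in L84 as in LA. The median difference LA minus L84 of the factor genes was -0.607, with 0 called. It was -0.207 without L84 replicate 1 and -0.0799 without the 2 arrays with the widest scores. Of 8 skeletal muscle markers, 8 were higher in L84 and in LA, with medians of 1.29 and 1.08 and 0 called. Of 6 macrophage and Langerhans cell markers, 6 were higher in LA, with a median of 1.58 and 1 called, and their median in L84 was 0.0763. Of 7 basal keratinocyte markers, 6 were higher in both L84 and LA, with medians of 1.57 and 1.13 and 2 called higher in each. Of 5 markers of differentiated epidermis, 3 were higher in both, with medians of 0.909 and 1.17 and 1 called higher in LA. Of 5 lymphocyte and mast cell markers, 4 were higher in L84 and 5 in LA, with medians of 1.19 and 1.85 and 0 called. Of 4 adipocyte markers, 3 were lower in L84 and 4 in LA, with medians of -1.54 and -1.03 and 0 called. Of 6 fibroblast markers, 5 were lower in L84 and 6 higher in LA, with medians of -0.402 and 0.774 and 0 called. Whether any of these lists is at 0 cannot be read from scores without a level, and their part in the lower scores of the factor genes was not tested.

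**Figure D5:**
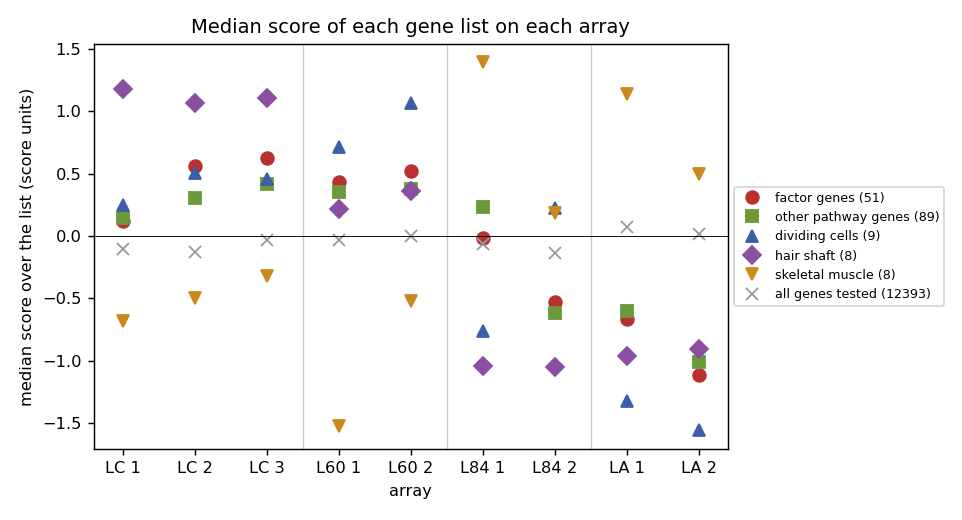
Median score (score units) on each array of the factor genes, the other pathway genes and marker lists. The factor genes and other pathway genes are lower in LA than in LC and L60, as are the dividing cell markers, whereas the hair shaft markers are equally low in L84 and LA.

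Promoters were examined because many factor genes varied together and because the E-box CACGTG, a sequence bound by Myc and related proteins, is known from promoters of ribosome biogenesis genes. A promoter window of 300 bases, 250 before and 50 after the start site, was found for 42 of the 51 factor genes in RefSeq (GRCm38.p6). The E-box, which reads the same on both strands, was in a window of 10 of the 42 genes (23.8%), against 10.8% of the measured genes with a window. Other motifs were searched on both strands. ATGGCGG was found for 11.9% against 7.65%, GGGCGG for 73.8% against 61%, and GCATGCGC for 0 against 5.01%. Whether matches of different motifs share bases was not counted. The stretches below show the E-box in capitals at different distances from the start site in genes of both subunits, reading 5′ to 3′ on the strand of the gene, from 150 bases before to 30 after the start site, and for Utp20, the factor gene called in LA against both LC and L60, the 30 bases around the site. The first base of the E-box lies at -60 in Nop2 (chr6:125131733-125131912, plus strand), -121 in Imp4 (chr1:34439679-34439858, plus strand), -20 in Utp18, a processome protein (chr11:93885737-93885916, minus strand), -43 in Nol11, a processome protein needed for ribosomal DNA transcription (chr11:107189352-107189531, minus strand), 25 in Tsr1 (chr11:74897930-74898109, plus strand) and 38 in Utp20 (chr10:88826765-88826794, minus strand), counted from the start site.
Nop2: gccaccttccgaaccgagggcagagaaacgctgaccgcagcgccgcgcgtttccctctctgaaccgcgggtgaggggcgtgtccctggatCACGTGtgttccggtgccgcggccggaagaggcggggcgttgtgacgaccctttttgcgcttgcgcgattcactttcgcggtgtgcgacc
Imp4: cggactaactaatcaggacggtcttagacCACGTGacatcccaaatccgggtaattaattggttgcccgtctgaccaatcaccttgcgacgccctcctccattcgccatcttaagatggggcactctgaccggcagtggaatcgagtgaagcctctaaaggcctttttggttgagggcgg
Utp18: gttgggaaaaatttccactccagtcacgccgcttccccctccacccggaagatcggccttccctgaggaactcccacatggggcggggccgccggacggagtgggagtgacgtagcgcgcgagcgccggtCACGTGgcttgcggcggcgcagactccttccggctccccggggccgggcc
Nol11: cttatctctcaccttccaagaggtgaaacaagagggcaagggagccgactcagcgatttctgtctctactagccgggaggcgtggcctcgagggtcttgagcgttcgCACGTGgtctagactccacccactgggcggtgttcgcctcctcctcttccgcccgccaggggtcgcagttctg
Tsr1: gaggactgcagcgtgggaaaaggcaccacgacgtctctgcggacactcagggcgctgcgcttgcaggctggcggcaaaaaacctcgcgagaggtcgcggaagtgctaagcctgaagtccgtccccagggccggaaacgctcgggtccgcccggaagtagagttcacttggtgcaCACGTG
Utp20: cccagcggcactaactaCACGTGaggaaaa

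Genes with and without an E-box were set side by side, with no test. In LA minus LC, the 10 genes with an E-box in the window had a median of -1.12 and 10 were lower, and the 32 without it had a median of -1.40 and 31 were lower. In L84 minus LC the medians were -0.821 and -0.860, and in L60 minus LC they were 0.258 and -0.0294. Nop2, with the site shown above, had a difference LA minus LC of -2.26, and Utp18, with a site next to its start, had -1.17 ± 0.931. A match describes letters in this window and does not show binding.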

How the data were processed

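9 mouse arrays of whole skin were used, 3 of LC and 2 each of L60, L84 and LA, grouped by their titles. The deposited table holds 1 score per probe set and array, already standardised by the authors: every probe set has a mean of 0 and an SD of 1 over the 9 arrays, as the values themselves show. RMA was used, per the submitters' processing notes; no version, background setting or scale before standardising is given in the sources used here. Of 22690 probe sets, 20380 name 1 gene and were used, 691 name several, 1555 name none and 64 are array controls. Gene symbols come from the platform annotation, updated through RefSeq (GRCm38.p6) for 20351 probe sets.

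Scores of a gene's probe sets were averaged, giving 12393 genes. limma 3.58.1 in R 4.3.3 fitted genotype means over all 9 arrays (5 residual degrees of freedom). The 6 differences between genotypes and an F test were made without moderating the variance, because standardising gave every probe set the same total spread, and p-values were adjusted by Benjamini-Hochberg over all 12393 genes. Tested on simulated data for L84 minus LC with 200 of 12393 genes changed, shifts of 5, 10 and 20 residual SDs were called in 31.3%, 92.5% and 100% of cases.

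The members, role lists, marker lists and pathway list were chosen with earlier results of these data known. Genes were named from a list of well-known factors of each role, or as the called and most extreme factor genes of each comparison. Nop10, Nhp2, Polr1d, Polr1e, Utp18, Nol11 and Ebna1bp2 were added after their values were seen. Alternatives were leaving out each array, a replicate block, moderated variance, 2 groups only, array medians set to 0, other ways of using probe sets, and leaving out arrays that stood apart. Arrays with the same number in different genotypes did not deviate together throughout (r from -0.0833 to 0.345), and the numbers were not used as pairs in the main fit. With 2 arrays a genotype their deviations mirror each other, so this check cannot exclude an effect shared by arrays of the same number. The replicate block is the alternative that allows for it.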

Additional observations from a re-analysis of the deposited data

Results flagged for a closer look

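Rrp15, Tsr1 and Utp20 stood on opposite sides of the control range in different transgenic genotypes. Rrp15 was above all LC arrays on both L60 arrays and below them on both L84 and both LA arrays, and differed by -2.54 in L84 minus L60 (adjusted p = 0.190) and by -1.60 in LA minus L60 (adjusted p = 0.170). Tsr1 was above all LC arrays in L60 and below them in LA, with a difference LA minus L60 of -2.14 (adjusted p = 0.287). The direct differences between genotypes did not pass the threshold for these genes, so a difference in response was not shown, and no other test of it was made. Utp20 was above all LC arrays in L60 and below them in LA, and its difference LA minus L60 of -2.74 passed (adjusted p = 0.0335). Leaving out LA replicate 1 or either L84 array kept this call, and leaving out any other array ended it. No genotype had the 4 arrays needed to look for outlying arrays within it.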

How the results depend on the processing

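The lower medians of the factor genes in L84 and LA kept their sign under every alternative run, and single calls did not. In LA minus LC the count of factor genes called, 2 as reported, was 0 to 1 leaving out each array in turn, 0 with the replicate block, 0 with moderated variance, 1 with only the arrays of the 2 groups, 1 with 1 probe set per gene, 4 with every probe set on its own, 0 without the 3 arrays high in 18S and 0 without the 2 arrays with the widest scores. In LA minus L60 the count, 1 as reported, was 0 to 2 leaving out each array, and 0 with the replicate block, moderated variance, only the 2 groups, without the 18S arrays and without the widest arrays. The F test called 0 to 1 leaving out each array, 1 without L84 replicate 2. With the block, in which LC replicate 3 has no partner, the calls among all genes in LA minus LC went from 223 to 1. They were 0 with moderated variance, 38 with only the 2 groups and 185 with 1 probe set per gene. Without the arrays high in 18S they were 1, and without the widest arrays 45. In LA minus L60, the 78 calls among all genes became 1 with the block, 0 with moderated variance and 3 with only the 2 groups. They were 13 without the 18S arrays and 23 without the widest arrays. The median of L84 minus LC was -1.08 to -0.486 leaving out each array, -0.303 among the arrays high in 18S, and -1.14 when only arrays low in 18S were used. The split by 18S was chosen after seeing the data. The medians leaving out each array were -1.72 to -1.10 in LA minus LC, -0.940 to -0.528 in L84 minus L60, -1.63 to -1.05 in LA minus L60 and -0.855 to -0.207 in LA minus L84. Without the arrays high in 18S, L84 minus L60 was -1.12 and LA minus L84 was -0.207. Without the widest arrays, LA minus LC was -1.10, LA minus L60 was -1.05 and LA minus L84 was -0.0799. With array medians set to 0, LA minus LC was -1.54, L84 minus LC -0.820 and L60 minus LC -0.113. Some single genes that were not called turned their sign. Leaving out each array, Polr1b ranged from -0.958 to 0.0928 in LA minus LC (0.0928 with the block) and from 0 to 1.33 in LA minus L60, Nop53 from -0.467 to 1.43 in LA minus LC (-1.36 with 1 probe set), and Ddx10 from -0.942 to 1.49 in L84 minus LC. Pes1 ranged from -0.201 to 1.16 in L84 minus L60, Imp4 from -0.159 to 0.907 in L84 minus L60 (-1.03 with 1 probe set), and Rrp9 from -0.249 to 1.03 in LA minus L60. The cause of these changes was not tested. With 2 or 3 arrays a genotype, and no signal over background in the scores, weak probes cannot be told from strong ones.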
